A study of Mus musculus with 56 samples.

Results

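A set of 6 genes of sugar transport was followed in kidney RNA: the sodium-glucose cotransporters Slc5a1 (SGLT1) and Slc5a2 (SGLT2) and the facilitative transporters Slc2a1 (GLUT1), Slc2a2 (GLUT2), Slc2a5 (GLUT5) and Slc2a9 (GLUT9). In GRCm38 (GENCODE M21), Slc5a1 (Entrez 20537) lies at chr5:33104219-33162870 and Slc5a2 (246787) at chr7:128265657-128272430, both on the plus strand. Slc2a1 (20525) lies at chr4:119108711-119137983, Slc2a2 (20526) at chr3:28697903-28731359 and Slc2a5 (56485) at chr4:150119283-150144169, all on the plus strand, and Slc2a9 (117591) at chr5:38349273-38503143 on the minus strand. The values cover all exons of each gene, untranslated parts included. The genes were chosen by name, and all 6 were found by gene symbol among the 17027 genes of the kidney table. All 6 were among the 11838 genes that passed the filter on low values, so each entered every test. The 56 kidneys came from female C57BL/6J mice, each the source of 1 library of poly(A) RNA. Mice arrived at the study at 7 weeks, lived in 12 h of light and 12 h of dark with free access to chow for 7 days, and then had food only in the daytime (daytime-restricted feeding, DRF) or only in the night (nighttime-restricted feeding, NRF, the reference) for another 7 days. Kidneys were taken at 9 weeks of age at zeitgeber times (ZT, in hours from lights on) of 0, 4, 8, 12, 16, 20 and 24, which made 14 groups of 4 mice. All groups shared strain, sex and chow, and differed in regimen and time.

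Glucose filtered in the glomerulus is taken back almost wholly in the proximal tubule. SGLT2 takes up most of it with sodium at the apical membrane of the early segments (S1 and S2), and SGLT1, with a higher affinity, takes up what is left in the straight segment (S3). Glucose then leaves the cell on the basolateral side through GLUT2 in the early segments and GLUT1 further along, and GLUT1 is also the carrier of distal nephron cells. GLUT5 is a fructose carrier of the apical membrane, and GLUT9 carries urate above all, though it was first described as a carrier of hexoses.

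Promoter sequences were taken from RefSeq (GRCm38.p6), as 250 bases before and 50 after a gene's start, and 5 of the 6 genes were matched. The promoters of Slc5a1 and Slc2a9 are shown because these genes differed between the regimens at the most time points, 3 and 4 of 7. Both are written 5′ to 3′ on the strand of the gene. Capitals mark matches, on either strand, to an E-box (CACGTG), a nuclear receptor core site (AGGTCA) or a glucocorticoid receptor core site (TGTTCT). None of these 3 motifs overlapped another in either window.
Slc5a1, chr5:33103969-33104268, plus strand: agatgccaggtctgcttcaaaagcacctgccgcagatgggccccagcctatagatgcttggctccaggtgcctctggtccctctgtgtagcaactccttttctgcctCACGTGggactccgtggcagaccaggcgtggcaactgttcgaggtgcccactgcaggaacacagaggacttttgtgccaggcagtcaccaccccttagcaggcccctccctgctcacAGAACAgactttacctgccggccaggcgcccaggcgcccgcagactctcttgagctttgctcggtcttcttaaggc
Slc2a9, chr5:38483336-38483635, minus strand: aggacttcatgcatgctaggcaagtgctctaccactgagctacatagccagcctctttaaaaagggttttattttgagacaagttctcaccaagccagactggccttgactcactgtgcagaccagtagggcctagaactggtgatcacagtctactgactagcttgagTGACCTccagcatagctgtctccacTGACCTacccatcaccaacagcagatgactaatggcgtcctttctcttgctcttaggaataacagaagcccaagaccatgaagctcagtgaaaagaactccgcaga
The Slc5a1 window held 1 E-box at -143 and 1 reverse-strand glucocorticoid receptor core site at -26 from the start. The Slc2a9 window, whose start lies inside the GENCODE gene, held the reverse complement of the nuclear receptor core site at -81 and again at -56. An E-box was in 7.15% of all 32851 promoters of this length, the nuclear receptor core site in 16.3% and the glucocorticoid receptor core site in 19.0%. Of the other promoters, that of Slc2a2 held 1 nuclear receptor core site at -21, and those of Slc2a1 and Slc2a5 held no match. These matches describe letters and do not show binding.

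Levels are given as transcript abundance per length (TPM), rebuilt from the deposited table, which allows comparison between genes per length. The recovered reads totalled 21.9 to 24.3 M per library, and the members had between 385 reads (lowest library of Slc2a9) and 16103 reads (highest library of Slc5a2). The level of Slc5a2 and the size of its differences depend on its assumed length. Only 5.66% of its values were whole reads at the annotated length, while all values of the other 5 members were. Its 3′ end shares 1052 bases with the gene BC017158 on the other strand, and in libraries that kept no strand the reads of this pair cannot be told apart. Segment markers were present in every library: the 5 markers of the S1 and S2 segments summed to 3975 to 8343 TPM, the 3 of S3 to 131 to 352 TPM and the 8 of the renal medulla and distal nephron to 4630 to 11523 TPM. Of the S1 and S2 list, Slc5a12, Slc22a6 and Slc22a8 also stand in the lists of other carriers. Akr1b3 of the medulla and distal nephron list also stands in that of fructose and polyol metabolism. Blood markers summed to 842 to 10191 TPM, 5 liver markers to 225 to 722 TPM, 3 adrenal markers to at most 7.10 TPM and 1 pancreas marker (Cela1) to 57.4 to 140 TPM, and Cyp11b1, Cyp11b2, Cpa1, Cela2a, Prss2 and Pnlip were not analysed here. The 5 adipose markers had a median sum of 5.14 TPM and reached 831 TPM in NRF ZT12 replicate 1. They also reached 446 TPM in NRF ZT16, 254 TPM in DRF ZT20 and 114 TPM in DRF ZT12, so that library was the highest but not the only one with them. Bulk RNA cannot tell fewer cells of a type from less RNA per cell.

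**Figure D1:**
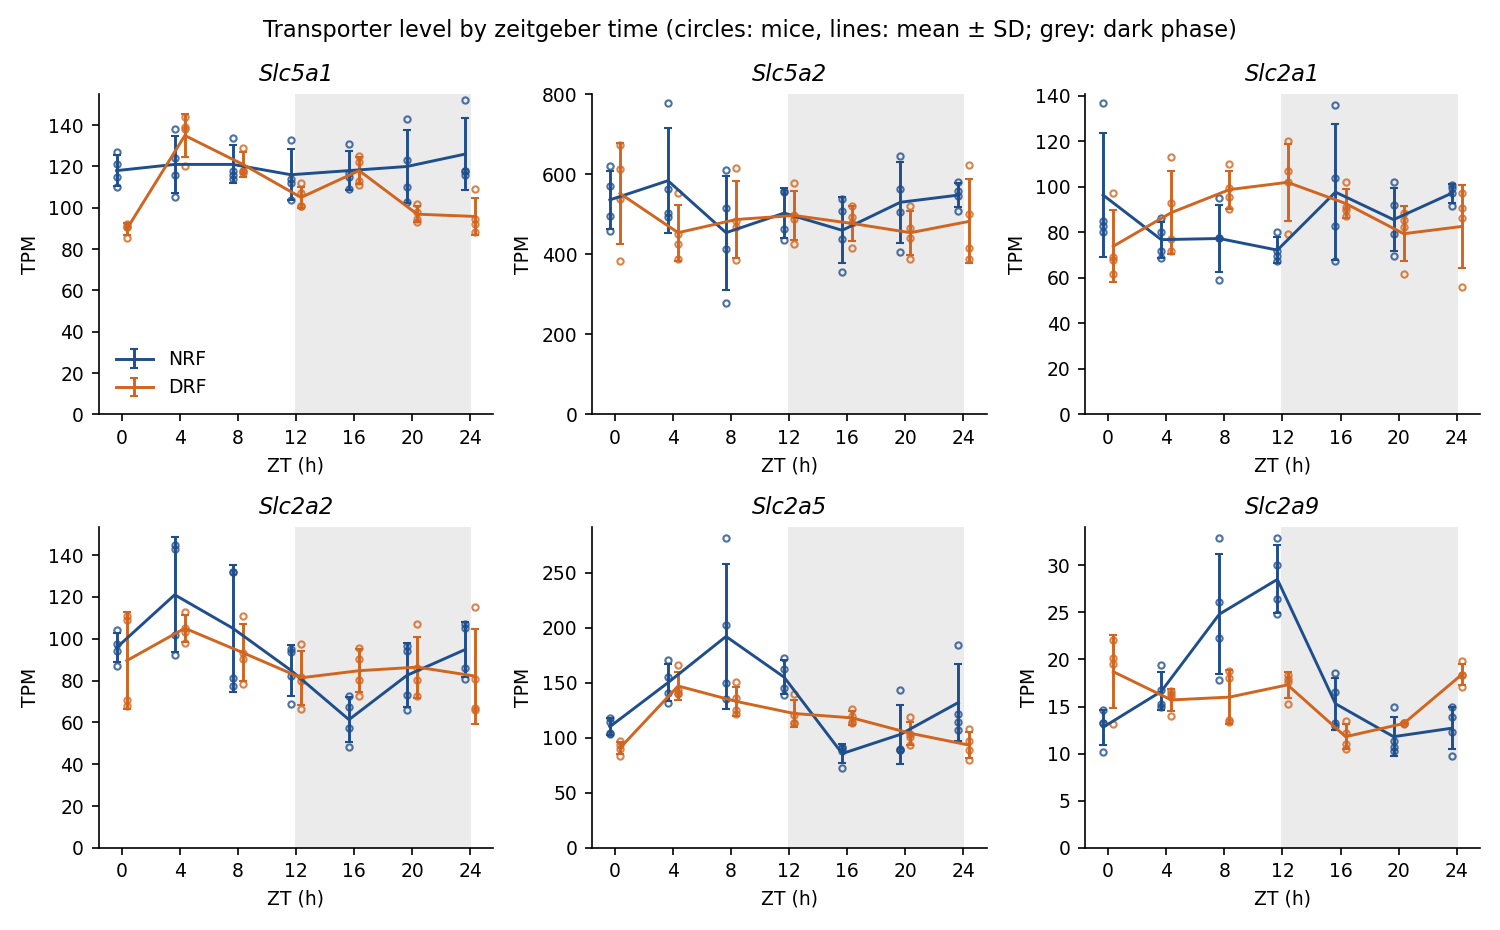
Level of each transporter (y axis, TPM) against zeitgeber time (x axis, h) under NRF (blue) and DRF (orange). Circles are single mice, lines join group means, bars are SD (n = 4) and grey marks the dark phase. Slc2a9 reached 28.5 TPM at ZT12 under NRF and its highest group mean under DRF was 18.7 TPM, while the 2 regimens overlapped throughout for Slc5a2.

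Slc5a1 had no called rhythm under NRF and varied with time under DRF, where it was lower than under NRF around lights on. Under NRF its 7 group means lay between 116 ± 12.3 TPM at ZT12 and 126 ± 17.3 TPM at ZT24 (SD, n = 4), and no neighbours in the order of these means differed by more than their SD. Under DRF the means were 89.7 ± 3.0, 135 ± 10.5, 121 ± 5.86, 105 ± 5.30, 118 ± 6.64, 96.9 ± 3.77 and 95.8 ± 8.91 TPM at the 7 times from ZT0 to ZT24, a 1.51-fold range. The DRF profile thus had 1 maximum early in the light and a smaller one at ZT16, with minima at ZT12 and around lights on.

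At ZT0 the 4 DRF kidneys held 85.4, 90.8, 90.7 and 92.1 TPM of Slc5a1 against 121, 110, 115 and 127 TPM in the NRF kidneys. The regimens did not overlap, with DRF below, a pattern seen in 10.1% of all genes at ZT0. The difference was -0.39 ± 0.09 (log2(TPM + 1), SE, limma, adjusted p = 0.000843). At ZT20 the DRF kidneys held 94.8, 97.8, 93.3 and 102 TPM, again all below the NRF values of 143, 110, 123 and 103 TPM, as in 6.12% of genes, and the difference was -0.29 ± 0.09 (limma, adjusted p = 0.0129). This call was lost without replicate 1 (adjusted p = 0.211) and without replicate 3 (adjusted p = 0.146) of every group. At ZT24, in other mice than at ZT0, DRF kidneys held 92.0, 88.1, 94.6 and 109 TPM and NRF kidneys 118, 118, 116 and 152 TPM, with DRF all below as in 13.3% of genes, a difference of -0.39 ± 0.09 (limma, adjusted p = 0.00132). The value of 152 TPM belongs to an NRF ZT24 library whose number is not among the labels, and without it the difference was -0.29 (limma, adjusted p = 0.0207). At ZT4 the order was the other way, 138, 120, 139 and 144 TPM under DRF against 124, 116, 138 and 105 TPM under NRF, but the libraries overlapped and the difference of 0.17 ± 0.09 did not pass the test (limma, adjusted p = 0.149).

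Averaged over clock time, Slc5a1 was lower under DRF by a small amount, with a difference in mesor (the mean over the day) of -0.11 ± 0.03 (limma, adjusted p = 0.0315). It was the only 1 of the 6 members called for mesor, where 8.93% of all genes were called. The call was lost under median-of-ratios rescaling of the libraries (adjusted p = 0.0888) and without replicate 1, 2 or 3 of every group (adjusted p = 0.291, 0.0646 and 0.351). Slc5a1 had a 24-h rhythm under DRF with an amplitude of 0.19 ± 0.05 and a fitted peak at 8.59 ± 0.907 h (limma, adjusted p = 0.00699), and under NRF its amplitude was 0.03 ± 0.04 (adjusted p = 0.735). The highest DRF mean was at ZT4 (135 TPM), so the fitted 8.59 h marks no observed maximum. A 12-h component was added to the 24-h cosine in each regimen, and under DRF its amplitude in Slc5a1 was 0.21 ± 0.02 with peaks at 4.73 h and 12 h later (limma, adjusted p = 3.12e-06). The interaction of regimen with the 24-h cosine was called for Slc5a1 (limma, adjusted p = 0.0165) and was lost without replicate 1 or 4 of every group or without ZT0 or ZT24 (adjusted p = 0.0542 to 0.0790).

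Slc5a2 showed no called difference in any comparison. Its mean over all 56 libraries was 501 TPM at the exon-union length of 2897 bases and 175 TPM at the 2277 bases of its longest transcript, and the next highest mean was the 124 TPM of Slc2a5. Single mice ranged from 279 to 777 TPM, and both extremes were NRF kidneys, at ZT8 and ZT4. Group means lay between 454 ± 55.1 TPM (DRF ZT20) and 584 ± 132 TPM (NRF ZT4), and no neighbours in the order of the 14 means differed by more than their SD. The largest difference between regimens was at ZT4, where DRF kidneys held 451, 552, 426 and 387 TPM and NRF kidneys 777, 494, 563 and 503 TPM. These groups overlapped, and the difference was -0.35 ± 0.18 (limma, adjusted p = 0.152; 95% interval -0.71 to 0.01). The mesor difference of -0.08 had an interval of -0.22 to 0.06, which at the exon-union length bounds a change of the daily mean but does not show that none occurred. The assumed length also scales the log2 differences of Slc5a2 and their SE. At 2277 bases single mice ranged from 111 to 251 TPM.

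With the mean level of the 8 medulla and distal nephron markers as a covariate, the SE of the Slc5a2 differences between regimens was 0.12 to 0.13 in place of 0.18. In that fit Slc5a2 had a 24-h rhythm under NRF (amplitude 0.15 ± 0.04, limma, adjusted p = 0.0129) and a differential rhythm between regimens (adjusted p = 0.0109), and it was lower under DRF at ZT4 (-0.33 ± 0.12, adjusted p = 0.0363). Without the covariate none of these 3 results passed, with adjusted p values of 0.231, 0.50 and 0.152 (limma). The covariate was the mean of log2(TPM + 1) over the 8 markers. Whether the covariate itself changed with regimen or time was not tested.

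The daily profile of Slc2a1 differed between the regimens, with its highest DRF mean at the time of its lowest NRF mean. Under NRF its means were 96.4 ± 27.3, 76.8 ± 7.96, 77.3 ± 14.7, 72.2 ± 5.63, 97.7 ± 29.9, 85.6 ± 14 and 97.2 ± 4.09 TPM at the 7 times from ZT0 to ZT24 (SD, n = 4). Under DRF they were 73.9 ± 15.8, 88.7 ± 18.4, 98.8 ± 8.37, 102 ± 16.9, 92.7 ± 6.51, 79.4 ± 12.1 and 82.6 ± 18.3 TPM, in the same order. The highest DRF mean and the lowest NRF mean were both at ZT12. Neighbours in the order of the 14 means never differed by more than their SD. The interaction of regimen with the cosine was called for Slc2a1 (limma, adjusted p = 0.00164) and remained below 0.05 under every alternative run, at 0.0288 or less.

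Within DRF, Slc2a1 peaked at 10.7 ± 1.14 h with an amplitude of 0.21 ± 0.06 (limma, adjusted p = 0.0154), a call that was lost without replicate 1, 2 or 3 of every group or without ZT0 or ZT12 (adjusted p = 0.0582 to 0.115). Under NRF the fitted peak was at 21 h with an amplitude of 0.18 ± 0.07, which did not pass (limma, adjusted p = 0.0647). It passed there with median-of-ratios rescaling (adjusted p = 0.0325) and with the medulla covariate (adjusted p = 0.00218). At ZT12 the DRF kidneys held 107, 102, 120 and 79.2 TPM and the NRF kidneys 69.7, 67.4, 71.6 and 80.3 TPM. Only 1 DRF mouse lay within the NRF range, and the difference was 0.48 ± 0.18 (limma, adjusted p = 0.0494). The call was lost with no filter (adjusted p = 0.0571) and without replicate 1, 2 or 3 of every group (0.174, 0.137 and 0.306). It was also lost without the NRF ZT24 library with no number (0.0524) and with a replicate block, which left out that library too (0.0565). Without NRF ZT12 replicate 1, the library highest in adipose markers, the difference was 0.46 with an adjusted p of 0.0986, and with the medulla covariate 0.40 ± 0.10 with an adjusted p of 0.00299.

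Slc2a2, the route of basolateral glucose exit in the early proximal tubule, was high in the light and low in the dark under NRF. Its NRF means were 95.7 ± 7.05, 121 ± 27.4, 105 ± 30.4, 84.9 ± 12.3, 61.3 ± 10.7, 82.5 ± 15.3 and 94.8 ± 13.3 TPM at the 7 times from ZT0 to ZT24, a 1.97-fold range. The NRF rhythm had an amplitude of 0.40 ± 0.07 and a peak at 4.54 ± 0.632 h (limma, adjusted p = 0.000169). Under DRF the means spanned 81.3 ± 12.9 TPM (ZT12) to 105 ± 6.47 TPM (ZT4), and the amplitude of 0.12 ± 0.07 did not pass the test (limma, adjusted p = 0.318). The difference between the rhythms was itself not called (adjusted p = 0.0618), and it passed with the medulla covariate (adjusted p = 0.00381). At ZT16 the NRF kidneys held 67.1, 48.3, 57.2 and 72.4 TPM and the DRF kidneys 72.6, 95.5, 90.2 and 80.3 TPM. All DRF mice were above all NRF mice there, as in 4.79% of genes, but the difference of 0.47 ± 0.18 did not pass (limma, adjusted p = 0.128).

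Slc2a5, the fructose carrier, was rhythmic under both regimens, with a lower fitted amplitude under DRF. The amplitudes alone were not compared by a test. Its NRF means were 110 ± 7.52, 150 ± 16.9, 192 ± 65.7, 155 ± 15.4, 85.6 ± 8.71, 103 ± 26.8 and 132 ± 35.1 TPM at the 7 times from ZT0 to ZT24. Under DRF they were 90.7 ± 5.65, 147 ± 12.8, 133 ± 13.1, 122 ± 12.7, 118 ± 6.02, 104 ± 10.5 and 93.4 ± 12.1 TPM. The range was 2.24-fold under NRF and 1.63-fold under DRF, with a steep fall between ZT12 and ZT16 under NRF and a gradual decline from ZT4 on under DRF. The amplitudes were 0.50 ± 0.08 with a peak at 6.99 ± 0.547 h under NRF (limma, adjusted p = 3.45e-05) and 0.27 ± 0.05 with a peak at 8.97 ± 0.729 h under DRF (adjusted p = 0.000794). The fitted DRF peak was later by 1.99 ± 0.911 h (SE). The highest mean, however, was at ZT4 under DRF (147 TPM) and at ZT8 under NRF (192 TPM). A 12-h component was also called under DRF (amplitude 0.19 ± 0.04, peak at 5.02 h, limma, adjusted p = 0.00117), and it was lost without ZT4 (adjusted p = 0.178).

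At ZT8 the NRF kidneys held, for Slc2a5, 135, 202, 150 and 281 TPM and the DRF kidneys 136, 151, 122 and 125 TPM. The difference was -0.47 ± 0.15 (limma, adjusted p = 0.0265), but it was -0.24 with an adjusted p of 0.381 without replicate 4 of every group, which includes the NRF kidney at 281 TPM. At ZT24 the DRF kidneys held 89.3, 96.8, 79.4 and 108 TPM and the NRF kidneys 107, 114, 122 and 184 TPM, with a difference of -0.47 ± 0.15 (limma, adjusted p = 0.0262). The NRF library with no number held the 184 TPM, and without it the difference was -0.30 (adjusted p = 0.211). At ZT16 every DRF kidney (113, 126, 120 and 114 TPM) was above every NRF kidney (91.6, 72.8, 87.5 and 90.6 TPM), as in 4.79% of genes, and the difference of 0.47 ± 0.15 missed the threshold (limma, adjusted p = 0.0573). It passed under median-of-ratios rescaling (adjusted p = 0.0386) and with the medulla covariate (adjusted p = 0.0174). The interaction of regimen and rhythm (adjusted p = 0.0373) was lost in several settings, among them rescaling (adjusted p = 0.0817) and leaving out ZT16 (adjusted p = 0.629).

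Slc2a9, the urate carrier, had the lowest level of the 6, with a mean of 16.7 TPM, and the largest difference between regimens. Under NRF its means were 12.8 ± 1.87, 16.6 ± 2.02, 24.8 ± 6.39, 28.5 ± 3.61, 15.3 ± 2.75, 11.8 ± 2.10 and 12.7 ± 2.25 TPM at the 7 times from ZT0 to ZT24, a 2.42-fold range. Under DRF they were 18.7 ± 3.88, 15.7 ± 1.20, 16 ± 2.85, 17.3 ± 1.36, 11.8 ± 1.33, 13.2 ± 0.10 and 18.4 ± 1.10 TPM, a 1.58-fold range. Under NRF the means rose to 1 maximum at lights off, and under DRF they were highest at lights on and again high at lights off. The 24-h amplitude was 0.59 ± 0.06 with a peak at 9.79 ± 0.429 h under NRF (limma, adjusted p = 7.64e-08) and 0.21 ± 0.06 with a peak at 4.10 ± 1.08 h under DRF (adjusted p = 0.0307), a ratio of 0.352. The shift of the fitted DRF peak from the fitted NRF peak was -5.69 ± 1.16 h (SE). The fitted 4.10 h lies between the high DRF means at lights on and lights off, so it marks no observed maximum. A DRF 12-h component peaked at 11.6 h with an amplitude of 0.22 ± 0.04 (limma, adjusted p = 0.00134). The DRF 24-h call was lost under rescaling (adjusted p = 0.0527) and in several settings that left out mice or times, and the 12-h call without ZT12 (adjusted p = 0.103). The interaction had the smallest adjusted p of the members, 4.71e-07 (limma), and stayed at 8.43e-05 or below under every alternative run.

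At ZT12 the NRF kidneys held 26.4, 30.0, 32.9 and 24.8 TPM of Slc2a9 and the DRF kidneys 17.9, 17.6, 15.3 and 18.4 TPM. All DRF mice were below all NRF mice, as in 13.8% of genes at that time, and the difference was -0.68 ± 0.14 (limma, adjusted p = 0.000509). Without the NRF ZT12 library highest in adipose markers it was -0.72 (adjusted p = 0.00104). At ZT8 the NRF kidneys held 17.8, 26.1, 22.3 and 32.9 TPM and the DRF kidneys 18.8, 18.0, 13.4 and 13.6 TPM, overlapping only in the lowest NRF mouse, with a difference of -0.59 ± 0.14 (limma, adjusted p = 0.00347). This call was lost without replicate 4 (-0.38, adjusted p = 0.101) and without replicate 3 (adjusted p = 0.0536) of every group. Around lights on DRF was the higher regimen. At ZT24 the DRF kidneys held 18.3, 19.8, 17.1 and 18.3 TPM and the NRF kidneys 9.74, 12.3, 13.9 and 14.9 TPM, with no overlap, a pattern of 6.94% of genes with DRF above, and a difference of 0.51 ± 0.14 (limma, adjusted p = 0.0111). At ZT0, in other mice, DRF kidneys held 20.1, 22.1, 19.5 and 13.1 TPM and NRF kidneys 13.3, 13.3, 14.6 and 10.2 TPM, and the difference was 0.49 ± 0.14 (limma, adjusted p = 0.0127). Leaving out replicate 2 or 3 of every group ended the ZT0 call (adjusted p = 0.139 and 0.0556), and replicate 1 or 2 the ZT24 call (adjusted p = 0.0836 and 0.113).

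**Figure D2:**
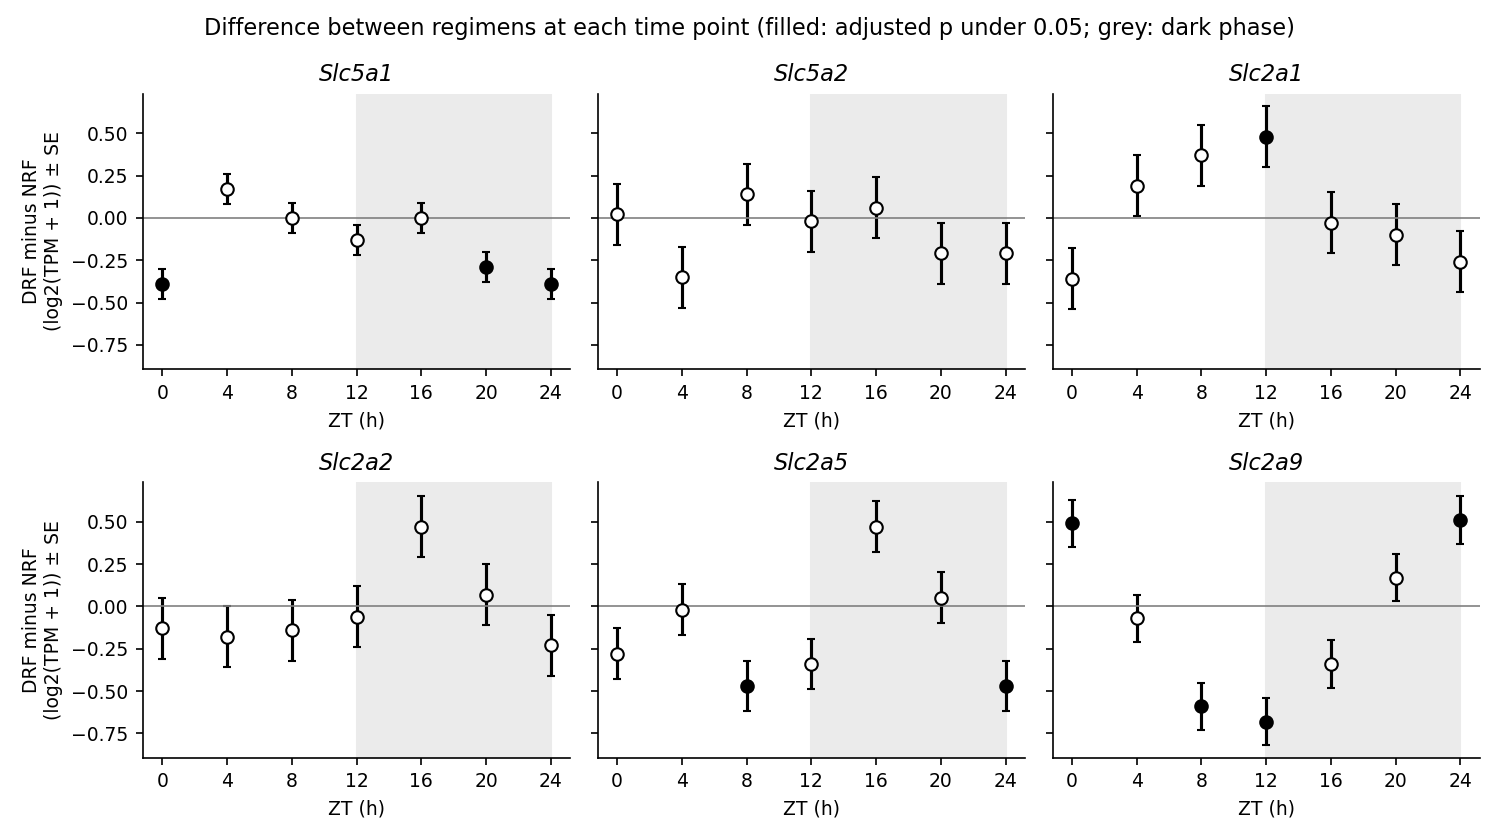
DRF minus NRF for each transporter (y axis, difference of log2(TPM + 1) ± SE) at each zeitgeber time (x axis, h), with filled points for an adjusted p under 0.05 and the dark phase in grey. Slc5a1 was lower under DRF at ZT20, ZT24 and ZT0, and Slc2a9 went from 0.49 at ZT0 to -0.68 at ZT12 and back to 0.51 at ZT24.

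Counted by time, 3 of the 6 members were called at ZT24, where 14.6% of all genes were. Called members numbered 2 of 6 at ZT0 (16.8% of genes), ZT8 (14.9%) and ZT12 (18.6%), 1 of 6 at ZT20 (16.8%), and 0 of 6 at ZT4 (27.4%) and ZT16 (4.81%). At ZT4 and ZT16, where no member passed in limma, the smallest adjusted p was 0.149 and 0.0573, and members with an unadjusted p under 0.05 numbered 0 and 3. Markers of the medulla and distal nephron had a median sum of 5148 TPM in DRF ZT0 and 6873 TPM in NRF ZT0, with overlapping ranges of 4630 to 9185 and 6172 to 10422 TPM. With those markers as a covariate the ZT0 differences were -0.40 ± 0.09 for Slc5a1 and 0.38 ± 0.12 for Slc2a9, both still called (limma, adjusted p = 0.000716 and 0.0207). Blood markers did not overlap between DRF and NRF at ZT0 (3274 to 6821 and 1796 to 2810 TPM) or ZT8 (4979 to 9346 and 842 to 3801 TPM). Immune markers did not at ZT4 (454 to 773 and 1019 to 1445 TPM) or ZT12 (458 to 617 and 635 to 974 TPM). Both overlapped at the other times. Endothelium markers did not overlap at ZT24 (359 to 465 TPM under DRF and 494 to 528 TPM under NRF). Liver markers did not at ZT16 (373 to 540 and 294 to 342 TPM). The part of these markers in the member differences was not tested. The same clock time 1 day apart gave no call for any member, with 0 of 6 under NRF (0.574% of all genes) and 0 of 6 under DRF, where limma called 0 of 11838 genes and 490 had an unadjusted p under 0.05. No member had an unadjusted p under 0.05 in either regimen.

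**Figure D3:**
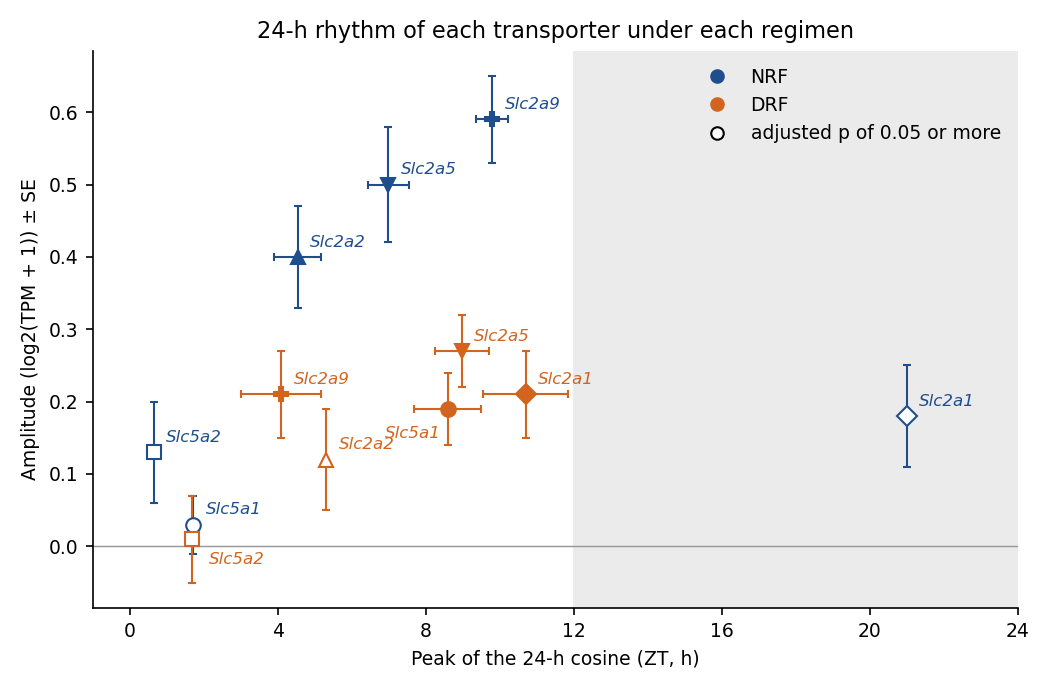
Amplitude of the fitted 24-h cosine (y axis, log2(TPM + 1) ± SE) against its peak time (x axis, ZT in h, with SE where called) for each transporter under NRF (blue) and DRF (orange), n = 28 per regimen. Open symbols had an adjusted p of 0.05 or more, and the dark phase is grey. Called fitted peaks all lay between 4.10 and 10.7 h, in the light phase, and Slc2a5 and Slc2a9 had a called rhythm under both regimens. The 4.10 h of Slc2a9 under DRF lies between high means at lights on and lights off. The fitted DRF peaks of Slc5a1 and Slc2a5 lie later than their highest DRF means, at ZT4.

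In all, 3 of the 6 members were rhythmic over 24 h under NRF, where 54.2% of all genes were, and 4 of 6 under DRF, where 35.8% were. Dual-oscillating members, rhythmic under both, were Slc2a5 and Slc2a9. Differential rhythm was called in 4 of 6 members, beside 45.2% of all genes. The 12-h component was called in 3 of 6 members under DRF, beside 24.6% of all genes, and in 0 of 6 under NRF, beside 0.659%, where the smallest adjusted p among members was 0.512 (limma) and no member had an unadjusted p under 0.05.

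Because DRF inverts the meals and leaves the light alone, ZT4, ZT8, ZT16 and ZT20 cross the light phase with the feeding window. The light phase (ZT4 and ZT8) was compared with the dark phase (ZT16 and ZT20) over both regimens, and the feeding window with the fasting window in the same 32 mice. Slc2a5 had the largest difference between light and dark, 0.58 ± 0.07 (limma, adjusted p = 1.94e-08). Its light kidneys held 132 to 281 TPM (median 153, n = 8) under NRF and 122 to 166 TPM (median 140) under DRF, and its dark kidneys 72.8 to 143 TPM (median 89.5) and 93.7 to 126 TPM (median 114). In NRF 1 dark kidney reached into the range of the light ones, and in DRF the ranges overlapped as well, yet the light medians were higher in both. Slc2a9 was higher in the light by 0.44 ± 0.07 (limma, adjusted p = 3.74e-06), with medians of 18.6 and 13.1 TPM in light and dark under NRF and of 16.2 and 13.1 TPM under DRF. Slc2a2 was higher in the light by 0.43 ± 0.09 (limma, adjusted p = 0.000199), with medians of 117 and 69.8 TPM under NRF and of 100 and 83.3 TPM under DRF.

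Slc5a1 was higher in the light by 0.14 ± 0.04 (limma, adjusted p = 0.00863), from medians of 117 and 116 TPM under NRF and of 125 and 107 TPM under DRF, and this call was lost under median-of-ratios rescaling (0.09, adjusted p = 0.0898). In all, 4 of the 6 members were higher in the light and none lower, where 36.5% of all genes were called, 28.3% higher and 8.19% lower. Of all genes called, 77.6% were higher in the light on the TPM scale and 51.0% after median-of-ratios rescaling, so the balance of directions over the transcriptome depends on the scaling. Slc2a2, Slc2a5 and Slc2a9 were higher in the light under both scalings. Slc5a2 (0.02 ± 0.09, adjusted p = 0.879) and Slc2a1 (-0.05 ± 0.09, adjusted p = 0.682) did not pass in limma.

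**Figure D4:**
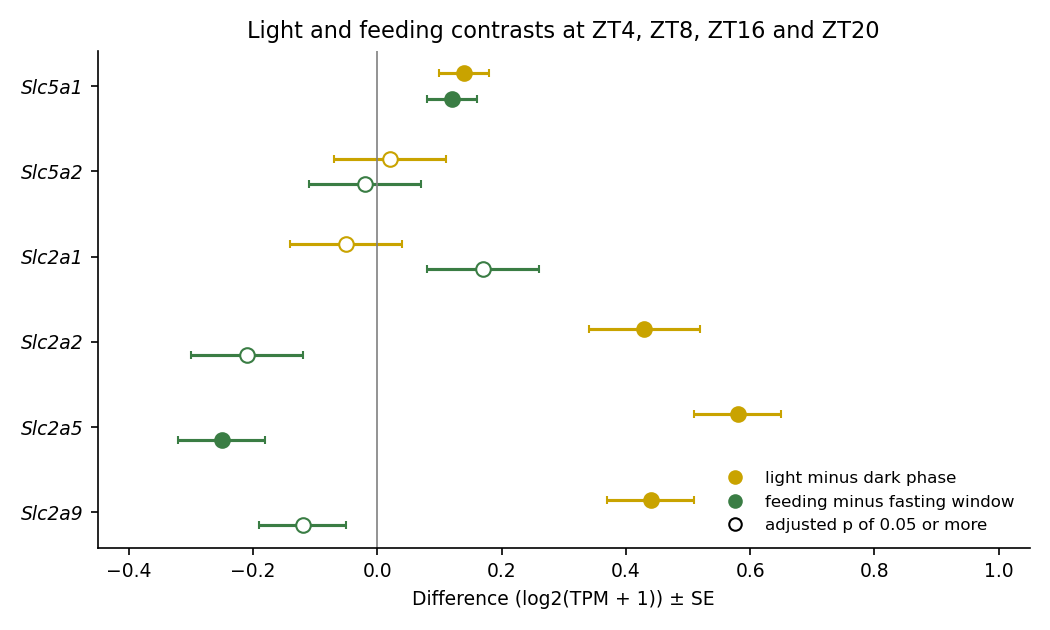
Difference between light and dark phase (yellow) and between feeding and fasting window (green) for each transporter, as log2(TPM + 1) ± SE (x axis) from 32 mice at ZT4, ZT8, ZT16 and ZT20. Filled points had an adjusted p under 0.05: Slc5a1, Slc2a2, Slc2a5 and Slc2a9 for light, Slc5a1 (0.12) and Slc2a5 (-0.25) for feeding.

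The 2 members called by feeding window had differences of opposite sign. Averaged over both regimens, Slc2a5 was lower in the feeding than in the fasting window by -0.25 ± 0.07 (limma, adjusted p = 0.00702) and Slc5a1 higher by 0.12 ± 0.04 (adjusted p = 0.0313), which made 2 of 6 called, beside 35.2% of all genes. Feeding and fasting medians of Slc2a5 were 89.5 and 153 TPM under NRF but 140 and 114 TPM under DRF. Those of Slc5a1 were 116 and 117 TPM under NRF and 125 and 107 TPM under DRF. Within a regimen the windows coincide with light and dark, so this contrast also measures how the light difference varied between regimens. For Slc5a1 the called difference was lost without replicate 1, 3 or 4 of every group, and for Slc2a5 without replicate 2 or 3, where no member was left called without replicate 3. Over all genes, 38.8% of the calls were higher in the feeding window and 51.6% after rescaling. Slc2a2 (-0.21 ± 0.09, adjusted p = 0.0618), Slc2a1 (0.17 ± 0.09, adjusted p = 0.122) and Slc2a9 (-0.12 ± 0.07, adjusted p = 0.192) did not pass in limma. With the medulla covariate Slc2a1 (0.22 ± 0.05, adjusted p = 0.000612) and Slc2a2 (-0.25 ± 0.07, adjusted p = 0.00729) also passed.

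Over the 14 group means, Pearson's r between members was highest for Slc2a2 with Slc2a5 (0.70) and Slc5a1 with Slc2a5 (0.58) and lowest for Slc2a1 with Slc2a9 (-0.58). Within DRF, over 7 group means, Slc5a1 and Slc2a5 had an r of 0.95, compared with 0.16 within NRF. These values share libraries and scaling and are given as a description. The 2 genes most like each member over the 14 means, among 8238 genes whose mean TPM reached 10, were Lgals3 (0.87) and Zfand3 (0.87) for Slc5a1, and Bnc2 (0.86) and Npl (0.83) for Slc5a2. For Slc2a1 they were Dhrs11 (0.97) and Ifitm1 (0.89), for Slc2a2 Chmp3 (0.90) and the myo-inositol cotransporter gene Slc5a11 (0.90). For Slc2a5 they were Fbxw8 (0.88) and Sema3b (0.85), and for Slc2a9 the peroxisomal enzyme gene Decr2 (0.95) and the mitochondrial dicarboxylate carrier gene Slc25a10 (0.94).

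Other sugar carriers of the same families were counted next. Of 11 other hexose transporters, 6 passed the filter, and Slc5a4a, Slc5a4b, Slc2a3, Slc2a6 and Slc2a7 were below a mean of 1 TPM. The list held 3 genes higher in the light and none lower (median of the 6, 0.17, beside 0.04 over all genes), 2 lower in the feeding window and none higher, and 4 of 6 with differential rhythm. Over all genes, 28.3% were higher in the light, 35.2% were called by feeding window and 45.2% had differential rhythm. Slc2a8 (GLUT8, an intracellular carrier) peaked at 7.76 h under NRF with an amplitude of 0.44 ± 0.03 (limma, adjusted p = 2.6e-11) and at 0.667 h under DRF with an amplitude of 0.19 ± 0.04 (adjusted p = 0.000970). It was higher in the light by 0.37 and lower in the feeding window by -0.31. Slc5a10 (SGLT5, a carrier of mannose and fructose in the proximal tubule), whose length is also uncertain, was higher in the light by 0.28 ± 0.05 (limma, adjusted p = 5.33e-05), and Slc5a9 by 0.19 ± 0.04 (adjusted p = 0.000167). Of 5 polyol and monocarboxylate carriers, 2 were higher in the light (28.3% of all genes), led by Slc5a11 (0.44 ± 0.08, adjusted p = 1.41e-05), and 2 lower in the feeding window (35.2% of all genes called), the lactate carrier Slc5a12 (-0.63 ± 0.11, adjusted p = 2.32e-05) and the proton-inositol carrier Slc2a13 (-0.52 ± 0.11, adjusted p = 0.000130).

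Of the 3 partners of the sodium-glucose carriers, all 3 were rhythmic under NRF (54.2% of all genes) and 1 under DRF (35.8%). Pdzk1, a scaffold of apical transporters, peaked at 20.1 h under NRF and 11.1 h under DRF, and it was higher in the feeding window by 0.24 ± 0.05 (limma, adjusted p = 7.41e-05). Its length is uncertain as well, and so is the size of its differences. Pdzk1ip1, the SGLT2 subunit MAP17, was higher in the light by 0.23 ± 0.06 (limma, adjusted p = 0.00411). Of 5 genes of fructose and polyol metabolism, 3 had a 12-h component under DRF, beside 24.6% of all genes: Khk (ketohexokinase, 0.17 ± 0.04), Tkfc (triokinase, 0.28 ± 0.04) and Glyctk (0.29 ± 0.04), with adjusted p values of 1.8e-05 to 0.00494 (limma) and peaks at 3.50 to 3.89 h. Khk was also higher in the light (0.18 ± 0.06, limma, adjusted p = 0.0108). Of 6 tested genes of glucose phosphorylation and release, G6pc (glucose-6-phosphatase) was lower in the light by -0.94 ± 0.11 (limma, adjusted p = 1.1e-09), as were 8.19% of all genes. G6pc3 was higher by 0.11 ± 0.03 (limma, adjusted p = 0.00123), as were 28.3%, and the others were not called by light. A DRF 12-h component was called in G6pc (0.65 ± 0.07, limma, adjusted p = 1.21e-06) and Slc37a4 (0.29 ± 0.05, adjusted p = 0.000293), beside 24.6% of all genes. Hk3 was below the filter.

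**Figure D5:**
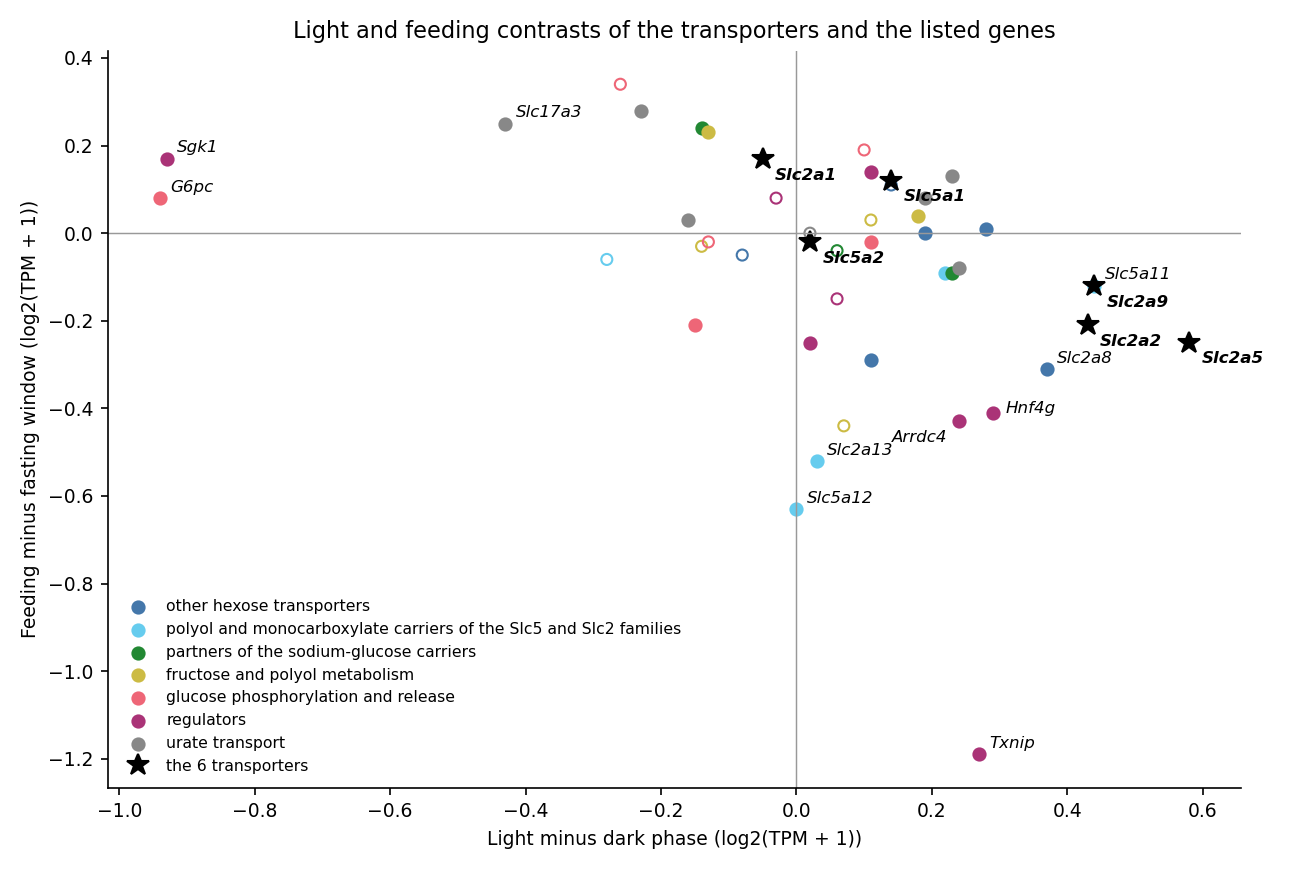
Light minus dark phase (x axis) against feeding minus fasting window (y axis), both as log2(TPM + 1), for the 6 transporters (stars) and the tested genes of 7 lists (circles, filled where either difference had an adjusted p under 0.05). Slc2a5, Slc2a2 and Slc2a9 lie at the right with Slc5a11 (under the Slc2a9 star) and Slc2a8, and Txnip lies lowest at -1.19.

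Of 8 regulators of these genes, 4 were lower and 1 higher in the feeding window (35.2% of all genes were called), and 6 had differential rhythm (45.2%). Txnip, an arrestin that promotes removal of glucose transporters from the cell surface, was lower in the feeding window by -1.19 ± 0.10 (limma, adjusted p = 8.64e-13), and its relative Arrdc4 by -0.43 ± 0.06 (adjusted p = 4.33e-07). Hnf4g, a nuclear receptor gene, was also lower in the feeding window, by -0.41 ± 0.07 (limma, adjusted p = 1.07e-05). It was higher in the light by 0.29 ± 0.07 (limma, adjusted p = 0.000923). Sgk1, a kinase that raises transporter activity, was lower in the light by -0.93 ± 0.18 (limma, adjusted p = 3.69e-05). Of 7 genes of urate transport, the route of Slc2a9, 3 were higher and 3 lower in the light (28.3% and 8.19% of all genes) and 2 higher in the feeding window (35.2% of all genes called in either direction). Slc22a12 (URAT1), the apical urate exchanger, had fitted peaks at 0.714 h under NRF and 1.81 h under DRF, and Slc16a9 at 14.9 h and 11.8 h. The fitted peaks of Slc2a9 were at 9.79 h and 4.10 h, the latter between high DRF means at lights on and lights off. Differences between the shifts of these genes were not tested.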

How the data were processed

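RNA-seq of 56 kidneys was used from 1 table of 17027 genes. The authors named its deposited values TPM, but the values behave as a score: log2(CPM + 1) of each gene over its length, scaled to nearly 1 sum per sample. The submitters' notes name HISAT2, Bowtie2, RSEM, mm10 and GRCm38.p6, with no roles or versions. The design had assumed linear TPM. Reads were recovered with GENCODE M21 exon-union lengths or, for 1078 genes, with a length found by a search for whole reads. They were whole, within 0.05 reads, in 87% of genes, and TPM was rebuilt on a linear scale. Effective library sizes were 24.8 to 28.9 M reads. Replicate pairs differed by at least 2.7 times the counting noise. The remaining 2036 genes with fractional values and 156 with no length were left out, except Slc5a2, Slc5a10, Pdzk1 and Rsc1a1, kept at annotated lengths.

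The 11838 genes whose mean TPM reached 1 were tested as log2(TPM + 1) by limma (version 3.58.1, R version 4.3.3) with trend-adjusted variances and Benjamini-Hochberg adjustment over all genes (called under 0.05). Rhythms were moderated F tests of a 24-h cosine in the 28 samples of a regimen, a 12-h pair was added to it, and differential rhythm was its interaction with regimen. A cosine value is an amplitude, and 95% intervals take the SE as normal. Other comparisons were contrasts of the 14-group fit, and fold changes on this scale understate those of low genes. The code was tested on simulated data. Mice were taken as replicates as the labels number them. P-values measure only the spread between these samples. Alternatives were another pseudocount (0.1), filter (a mean of 5, or none), scaling (median of ratios, or the deposited log values), a medulla marker covariate, a replicate block (fitted without the NRF ZT24 library with no number), and leaving out each replicate or time. Feeding hours were not given in the labels, and ZT4 and ZT8 were taken as daytime feeding and ZT16 and ZT20 as nighttime feeding. Members, lists and tests were chosen with earlier results of these data known. Named genes were all 6 members, of each list the 2 highest and 2 lowest called genes of a comparison and those absent or under the filter, and for each member the 2 genes with the highest r. Some listed genes are not reported here.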

Additional observations from a re-analysis of the deposited data

Results flagged for a closer look

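In 5 of the 84 groups of 4 mice examined for the members, 1 kidney lay far from the other 3, and chance gives about 1 in 20 such groups. Slc5a1 was 152 TPM in the NRF ZT24 library whose number is not among the labels, with the others at 116, 118 and 118 TPM. It was 129 TPM in 1 DRF ZT8 kidney beside 117, 118 and 118 TPM. Slc2a1 was 137 TPM in 1 NRF ZT0 kidney beside 80.2, 82.9 and 85.2 TPM. Slc2a5 was 143 TPM in 1 NRF ZT20 kidney beside 89.2, 89.2 and 89.8 TPM, and 166 TPM in 1 DRF ZT4 kidney beside 140, 141 and 143 TPM.

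The rhythm differed between the regimens, by the limma interaction of regimen with the 24-h cosine, in Slc2a9 (adjusted p = 4.71e-07), Slc2a1 (adjusted p = 0.00164), Slc5a1 (adjusted p = 0.0165) and Slc2a5 (adjusted p = 0.0373).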

How the results depend on the processing

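Of 102 results on the members, 31 were called. Of the 1704 values under alternatives, 1606 kept direction and side of the threshold, 69 lost the call, 29 gained one and 0 changed sign with a call. In all, 14 called results held under every alternative run and 17 were lost under at least 1, for which the cause was not tested. Counts of members called that moved by over 1.5 times from the main count, or to or from 0, are given next, with smaller moves only for the covariate, rescaling and the block. With the medulla covariate, 5 were rhythmic under NRF, 6 had differential rhythm, 4 a DRF 12-h component, 3 differed at ZT8, 1 differed at ZT4, 2 at ZT16, 4 by feeding window and 2 in mesor. Median-of-ratios rescaling gave 1 at ZT4, 1 at ZT16, 0 in mesor, 4 rhythmic under NRF, 3 under DRF, 3 with differential rhythm, 3 by light and 3 by feeding window, and the deposited log values gave 1 at ZT8 and 0 in mesor. No filter gave 1 at ZT12. The replicate numbers did not pair the samples: same-numbered libraries of different groups had a median correlation of deviations of 0.00505, beside 0.00307 for others. A replicate block gave 1 at ZT12, 1 at ZT16 and 2 at ZT24. The block was fitted without the NRF ZT24 library with no number, so its counts also reflect the loss of that library. Without the NRF ZT24 library with no number, 1 was called at ZT12 and 1 at ZT16. Without NRF ZT12 replicate 1 (chosen after seeing the data, as were that library and the times ZT4 to ZT20), 1 was called at ZT12 and 0 in mesor. Without ZT0, 2 had differential rhythm and 0 differed in mesor, without ZT12 0 and without ZT16 2 differed in mesor. Leaving out each replicate number in turn, or NRF ZT12 replicate 1, gave 2 to 4 rhythmic members under DRF, 2 to 4 with differential rhythm, 1 to 2 at ZT0, 0 to 2 at ZT8, 1 to 3 at ZT12, 0 to 1 at ZT20, 1 to 3 at ZT24, 0 to 3 by feeding window and 0 to 1 in mesor. Over all genes, the share of calls that were higher moved by over 10 percentage points with median-of-ratios rescaling from 36.8% to 54.0% at ZT4, 63.8% to 48.4% at ZT20, 33.8% to 48.7% at ZT24 and 34.2% to 47.3% for mesor, and with the deposited log values from 39.9% to 51.5% at ZT8 and 39.3% to 57.6% at ZT12. The level of Slc5a2 and the size of its differences are limited by its unknown length.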
